A study of Danio rerio with 6 samples.

Results

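The 8 genes described here, *pou5f3*, *sall4*, *lin28a*, *aplnra*, *aplnrb*, *apela*, *cxcr4a* and *cxcr4b*, encode regulators of the pluripotent early embryo, receptors that guide migrating embryonic cells, and a receptor ligand. They are 8 of 47445 rows of a read count table made from 1-day-old embryos of the zebrafish, *Danio rerio*. They were picked by name with their values in this comparison known, so their differences between the groups are given as a description. Where the fit over all genes called one of them, this is stated, but nothing is read from it. The table has 3 libraries labelled rapgef1b knockdown and 3 labelled as wild-type control. The labels name neither the strain, the depletion reagent nor a control reagent, and they do not say whether a library came from a separate clutch or pool, so p-values measure only the spread between these libraries. *rapgef1b* encodes an exchange factor that activates Rap GTPases. The study's title asks what it does in neural crest specification and in the presomitic mesoderm, from which the somites form.

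Pou5f3 is the zebrafish relative of mammalian Oct4. With Nanog and Sox19b it activates the zygotic genome, and later its RNA persists in neural and posterior progenitors. Sall4 is a zinc-finger factor of embryonic stem and posterior progenitor cells, and Lin28a is an RNA-binding protein that blocks maturation of the let-7 microRNA. The apelin receptors Aplnra and Aplnrb, and the chemokine receptors Cxcr4a and Cxcr4b, are G-protein-coupled receptors. The peptide Apela is the early ligand of the apelin receptors and acts in gastrula movements and heart formation, while apelin, encoded by *apln*, acts later in vessels. Cxcl12 ligands and Cxcr4 guide primordial germ cells, the lateral line primordium and endoderm.

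The libraries held 2118413 to 2232625 counts in the labelled knockdown group and 2042600 to 3809123 in the controls. Replicates of a group differed by more than sampling noise: chi-square divided by its degrees of freedom was 3.27 to 7.65. The targeted gene was not lower: *rapgef1b* had 142, 105 and 140 CPM in the libraries labelled knockdown, against 109, 111 and 109 CPM in the controls, where CPM is a count scaled for library depth. Its log2 fold change was 0.24 (SE 0.14; edgeR quasi-likelihood test, Benjamini-Hochberg adjusted p = 0.386). Its paralog *rapgef1a* had a log2 fold change of -0.19 (SE 0.18, edgeR adjusted p = 0.638). The groups are therefore named by their labels throughout. Of 21 tissue markers, 20 had a row. The muscle marker *mylpfa* had at most 1 count in any library, while another row of that gene, *mylpfa-3*, had 148 to 606, and the lens marker *cryaa* had at most 5. Germ cell markers were near the counting limit, with *ddx4*, *nanos3* and *dnd1* at 1.01 to 5.13 CPM in every library.

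Of the 8 genes, 7 passed the filter on low counts, and *apela* did not. All 7 tested genes had a log2 fold change above 0. An edgeR adjusted p under 0.05 was reached by 2 of them, *sall4* and *aplnrb*, both higher, where 4.29% of all 15607 tested genes were called (2.01% higher and 2.27% lower). In 5 of them the 3 libraries labelled knockdown lay above the 3 controls, where 11.3% of tested genes did so and 23.2% did not overlap in either direction. Because the genes were chosen on this comparison, neither count is evidence about them. The embryos were sequenced whole, so more cells of a type and more RNA per cell cannot be told apart.

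*pou5f3* had the fewest reads of the 7. Its counts were 30, 17 and 26 in labelled knockdown replicates 1, 2 and 3, against 21, 14 and 16 in control replicates 1, 2 and 3, from libraries of unequal depth. Scaled to depth these were 13.1, 7.70 and 11.9 CPM in the libraries labelled knockdown, against 5.56, 4.49 and 8.05 CPM in the controls. The groups overlapped, since labelled knockdown replicate 2 lay below control replicate 3. The log2 fold change was 0.90 (SE 0.32; 95% confidence interval 0.23 to 1.57). It was the highest estimate among the 7 genes and the least precise.

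*sall4* had the most reads of the 8, 492 to 983 per library, not corrected for its length. It had 372, 290 and 427 CPM in labelled knockdown replicates 1, 2 and 3, against 260, 245 and 247 CPM in control replicates 1, 2 and 3. The groups did not overlap, but labelled knockdown replicate 2 was much closer to the controls than replicate 3. Set against the controls, the log2 fold change was 0.53 (SE 0.15; 95% confidence interval 0.23 to 0.84). It was 0.39 without labelled knockdown replicate 3 and 0.66 without replicate 2. *sall4* was called in 10 of 16 alternatives and not without labelled knockdown replicate 1 or 3, without any 1 control, or in the non-robust fit.

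*lin28a* had 216, 186 and 206 CPM in labelled knockdown replicates 1, 2 and 3, against 164, 155 and 143 CPM in control replicates 1, 2 and 3. All 3 libraries labelled knockdown lay above all controls, and both groups were narrow. This gave a log2 fold change of 0.39 (SE 0.13; 95% confidence interval 0.12 to 0.66). The row's name is an older name of *lin28ab* in RefSeq's GRCz12tu table, which also holds a paralog *lin28aa*. The counts have no row named *lin28aa* or *lin28ab*, so which of their reads the *lin28a* row holds is not known.

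**Figure D1:**
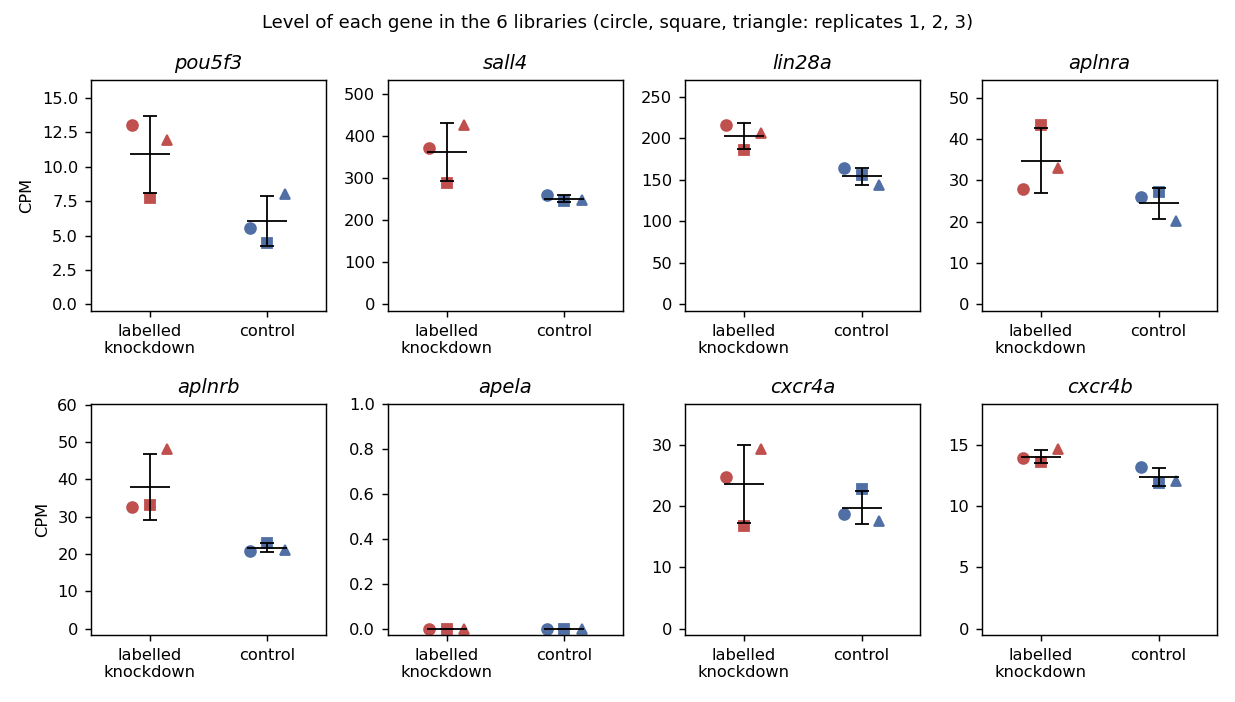
CPM of each of the 8 genes in the 6 libraries, with the labelled knockdown group at the left and the controls at the right of each panel. Points are libraries, bars the mean and SD (n = 3 each). *sall4*, *lin28a*, *aplnra*, *aplnrb* and *cxcr4b* have no overlap between the groups, *pou5f3* and *cxcr4a* overlap, and *apela* is at 0 throughout.

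Among the receptors, *aplnrb* stood furthest from the controls. It had 32.6, 33.1 and 48.2 CPM in labelled knockdown replicates 1, 2 and 3, against 20.9, 23.1 and 21.1 CPM in control replicates 1, 2 and 3. The controls lay close together, and replicate 3 was the highest library of the labelled knockdown group. The log2 fold change was 0.80 (SE 0.20; 95% confidence interval 0.39 to 1.21). It was 0.59 without labelled knockdown replicate 3, and *aplnrb* was not called there or without any 1 control.

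Its paralog *aplnra* had 27.9, 43.5 and 33.0 CPM in labelled knockdown replicates 1, 2 and 3, against 25.9, 27.2 and 20.1 CPM in control replicates 1, 2 and 3. The groups touched without overlapping: labelled knockdown replicate 1 was just above control replicate 2. Set against the controls, the log2 fold change was 0.49 (SE 0.20; 95% confidence interval 0.070 to 0.91). It was 0.29 without labelled knockdown replicate 2, the library with the highest *aplnra* and not with the highest *aplnrb*.

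No read was counted for *apela* in any library, and its second row, *apela-2*, was also at 0 throughout. *apela* was the one gene of the 8 with a second row. Of 5998 gene names with such a row, 1631 (27.2%) had no read in either row in any library. Among the 35450 rows in no such pair the share without a read was 32.8%. The 2 shares are not alike, since a name with a second row was counted only if both rows were at 0. The other rows are all remaining rows of the table, of any kind. The shares therefore do not show whether a second row goes with more zeros. The names at 0 in both rows included *bmp2b*, *flt1* and *wnt8a*, named here after their values were seen. Whether reads of these genes could be assigned to their rows in the authors' counting is not known, so the 0 does not show that *apela* was not expressed. If they could, a count of 0 allows up to 3 counts, which is 1.31 to 1.38 CPM in the libraries labelled knockdown and 0.794 to 1.51 CPM in the controls.

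The chemokine receptors lay nearer to the controls. *cxcr4a* had 24.8, 16.8 and 29.3 CPM in labelled knockdown replicates 1, 2 and 3, against 18.8, 22.8 and 17.6 CPM in control replicates 1, 2 and 3. Labelled knockdown replicate 2 lay below every control, and the other 2 libraries of its group lay above every control. This gave a log2 fold change of 0.25 (SE 0.22; 95% confidence interval -0.21 to 0.72), and it was 0.064 without labelled knockdown replicate 3 and 0.44 without replicate 2.

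*cxcr4b* had 13.9, 13.6 and 14.7 CPM in labelled knockdown replicates 1, 2 and 3, against 13.2, 11.9 and 12.1 CPM in control replicates 1, 2 and 3. Although no library of one group entered the range of the other, the gap was small beside the counting error of 24 to 50 reads per library. The log2 fold change was 0.18 (SE 0.23; 95% confidence interval -0.31 to 0.66), an interval that holds both no change and a difference as large as the *sall4* estimate.

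The order of the libraries labelled knockdown differed between the genes. On the log2 scale of CPM, *sall4* deviated from the control mean by 0.57, 0.21 and 0.77 in replicates 1, 2 and 3, and *pou5f3* by 1.06, 0.35 and 0.93. Replicate 2 was the lowest of its group for these genes, for *lin28a* (0.49, 0.27 and 0.42) and for *cxcr4a* (0.33, -0.22 and 0.56). *aplnra* ran the other way, with 0.20, 0.82 and 0.43, and was highest in replicate 2. *aplnrb* deviated by 0.57, 0.59 and 1.12, so the apelin receptor paralogs differed in which library was highest. *cxcr4b* deviated by 0.16, 0.13 and 0.23, close to the control range of -0.058 to 0.092, and was also lowest in replicate 2.

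**Figure D2:**
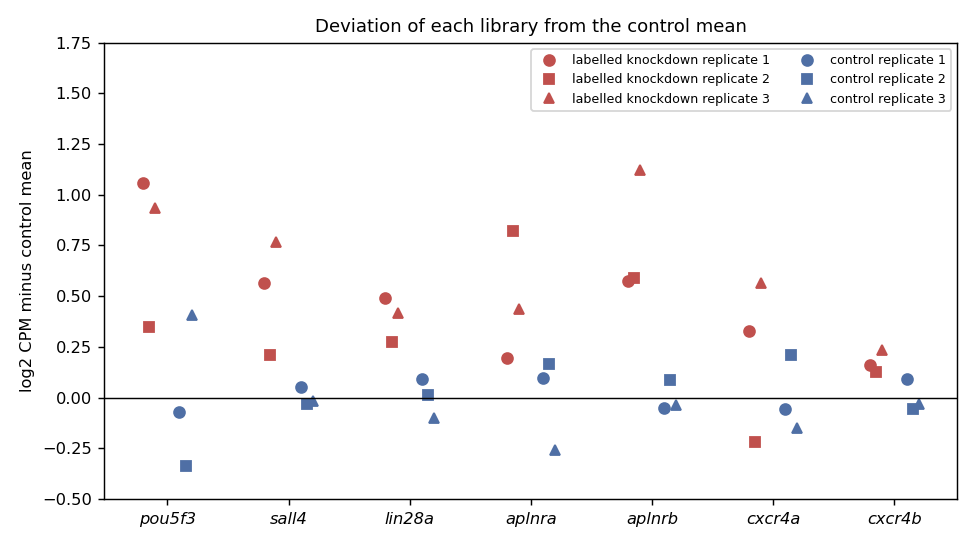
Log2 CPM of each library minus the control mean of the same gene, for the 7 tested genes. Red marks are the libraries labelled knockdown and blue marks the controls, with a shape for each replicate. Replicate 2 (red square) is lowest for *pou5f3*, *sall4*, *lin28a*, *cxcr4a* and *cxcr4b* and highest for *aplnra*.

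Reads within each paralog pair were compared as shares, which need no correction between libraries for depth. *aplnrb* took 54.0%, 43.2% and 59.3% of the reads of *aplnra* and *aplnrb* in labelled knockdown replicates 1, 2 and 3, against 44.6%, 45.9% and 51.2% in control replicates 1, 2 and 3. The shares overlapped between the groups, and the 95% Wilson intervals of labelled knockdown replicates 2 (36.0% to 50.7%) and 3 (52.0% to 66.3%) did not meet. *cxcr4b* took 38.02 ± 5.995% of the reads of the *cxcr4* pair in the libraries labelled knockdown and 38.8 ± 3.91% in the controls (SD, n = 3 each), and these ranges overlapped too. *lin28a* took 72.9 ± 3.46% of the reads of *lin28a* and *lin28b* in the libraries labelled knockdown and 68.9 ± 1.80% in the controls (SD, n = 3 each). Its paralog *lin28b* itself had a log2 fold change of 0.10, with 66.6 to 81.5 CPM in the libraries labelled knockdown and 63.9 to 76.6 CPM in the controls.

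**Figure D3:**
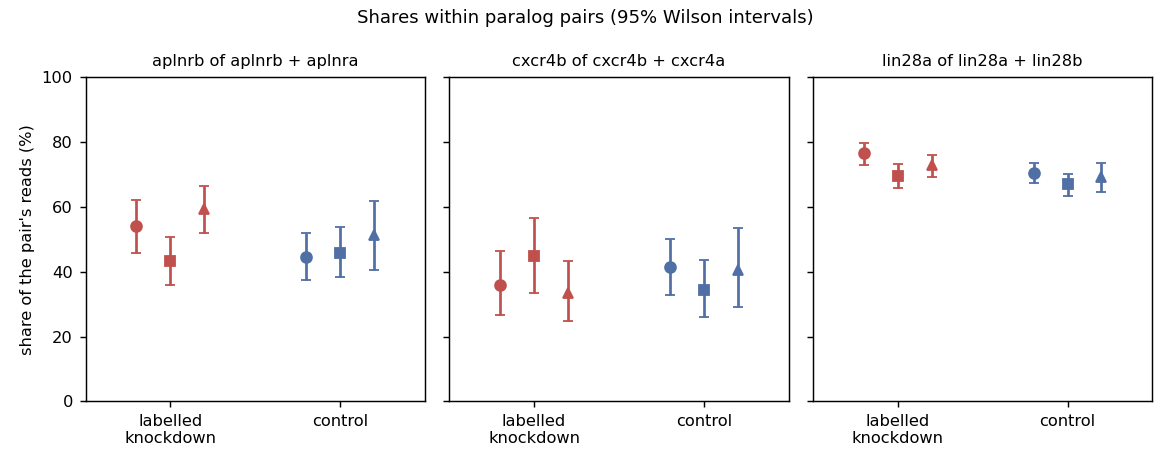
Share of a paralog pair's reads taken by *aplnrb*, *cxcr4b* and *lin28a* in each library, in percent, with 95% Wilson intervals for counting error. Shares of the labelled knockdown group (left) and of the controls (right) overlap in all 3 pairs.

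The ligands and partners of these genes were named whatever their result. *apln*, the apelin ligand, had 46.6, 55.7 and 31.6 CPM in labelled knockdown replicates 1, 2 and 3, against 62.2, 59.6 and 65.9 CPM in control replicates 1, 2 and 3. All 3 libraries labelled knockdown lay below the controls, the opposite side from *aplnra* and *aplnrb*. Its log2 fold change was -0.48 (SE 0.18), and it did not pass (edgeR adjusted p = 0.136). It passed without labelled knockdown replicate 2, at -0.68 and an edgeR adjusted p of 0.0395, and was -0.29 without replicate 3 (range of p over its alternatives from 0.0395 to 0.439).

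The Cxcr4 ligand genes did not pass either. *cxcl12a* had 69.2, 41.7 and 61.9 CPM in the libraries labelled knockdown, against 37.1, 44.6 and 51.8 CPM in the controls, with a log2 fold change of 0.39 (SE 0.19, edgeR adjusted p = 0.274). *cxcl12b* had a log2 fold change of 0.24 (SE 0.15, edgeR adjusted p = 0.423). It has a second row, *cxcl12b-2*, with a log2 fold change of -0.30, and with both rows summed the value was 0.075. *ackr3b*, a receptor that takes up Cxcl12, had 0.054 (SE 0.22, edgeR adjusted p = 0.934).

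*trim71*, an RNA-binding ubiquitin ligase repressed by let-7, had 702, 465 and 636 CPM in labelled knockdown replicates 1, 2 and 3, against 454, 436 and 360 CPM in control replicates 1, 2 and 3. The groups did not overlap, and replicate 2 was the lowest of its group, as for *lin28a*. Its log2 fold change was 0.53 (SE 0.16), and its edgeR adjusted p of 0.0627 missed the threshold. It passed in 5 of 16 alternatives, among them DESeq2 and the fit without labelled knockdown replicate 2, where it was 0.67 (range of adjusted p from 0.014 to 0.247). *nanog* was too low to test: labelled knockdown replicates 1, 2 and 3 had 6, 9 and 15 reads, against 10, 3 and 8 in the controls.

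**Figure D4:**
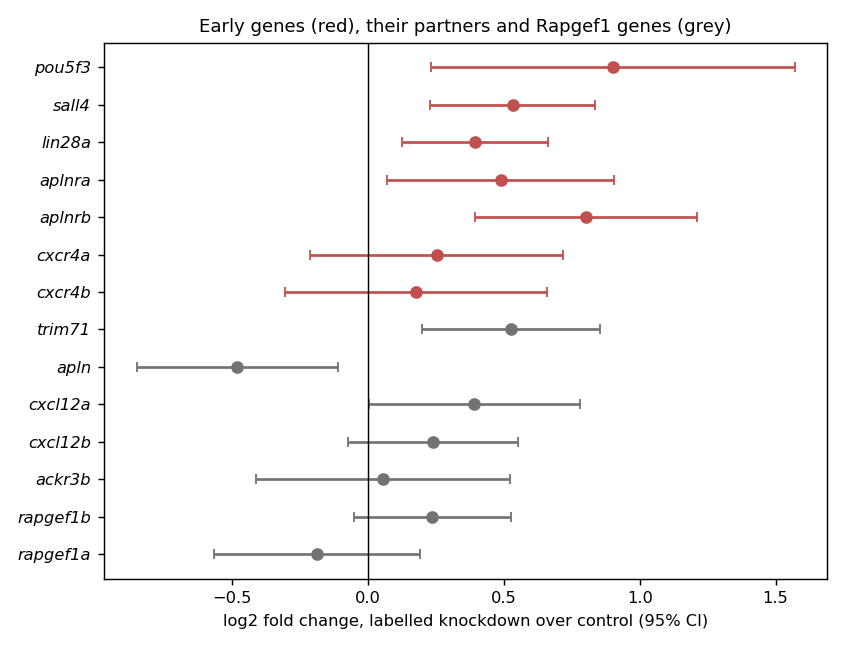
Log2 fold change of the libraries labelled knockdown over the controls with its 95% confidence interval (edgeR, n = 3 each) for the 7 tested genes in red and for partner genes, *rapgef1b* and *rapgef1a* in grey. Intervals of *cxcr4a* and *cxcr4b* include 0, those of the other red genes do not, and *apln* lies below 0. The intervals are not adjusted for the number of genes tested, and the red genes were picked with their values known. Of the red genes, *sall4* and *aplnrb* had an edgeR adjusted p under 0.05. *pou5f3*, *lin28a* and *aplnra* had an edgeR adjusted p of 0.122, 0.0918 and 0.188. Over all 15607 tested genes, 2826 had an unadjusted edgeR p under 0.05.

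Genes that work with these 8, or mark the cells that carry them, were taken from 12 lists drawn from general knowledge. The lists were chosen with earlier results of these data known, so their counts of calls are a description and not evidence. The lists hold 170 genes with a row, of which 119 were tested and 11 called, 7 higher and 4 lower. Of all tested genes, 4.29% were called, 2.01% higher and 2.27% lower. Over the 15607 tested genes the median was 0.011 on the log2 scale, and 2826 of them had an unadjusted edgeR p under 0.05.

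Among 16 tested partners in pluripotency and genome activation, 1 was called higher and 3 lower, with a median log2 fold change of 0.20. The SoxB1 genes *sox3* and *sox2*, whose proteins bind DNA beside Pou5f3 and keep neural progenitors, fell. *sox3* had 157 ± 11.1 CPM in the libraries labelled knockdown and 244 ± 7.81 CPM in the controls (SD, n = 3 each). Its difference was -0.63 on the log2 scale (SE 0.13, edgeR adjusted p = 0.00677). *sox2* had 77.0, 91.5 and 95.4 CPM in the libraries labelled knockdown, against 136, 163 and 103 CPM in the controls, a log2 fold change of -0.62 (SE 0.16, edgeR adjusted p = 0.0309). Both lay below the controls in all 3 libraries labelled knockdown, while *pou5f3* and *sall4* had means above the control means. The SoxB1 genes *sox19b* and *sox19a* of the same list overlapped between the groups. Their log2 fold changes were -0.29 and -0.14, and they did not pass (edgeR adjusted p = 0.317 and 0.692). The second row *sox19a-2* had -0.59 (edgeR adjusted p = 0.192). *hmgb3a*, a chromatin protein gene, fell by 0.50 on the log2 scale (SE 0.13, edgeR adjusted p = 0.0307).

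The called higher partner was *ved*, a ventral homeobox repressor. It had 14.4, 14.5 and 17.9 CPM in the libraries labelled knockdown, against 6.35, 7.37 and 9.05 CPM in the controls, a log2 fold change of 1.07 (SE 0.26, edgeR adjusted p = 0.0235). Several of these calls were lost when 1 library was left out, which also leaves fewer libraries to test. Without control replicate 2, where 218 genes were called in place of 669, *sox3*, *sox2*, *hmgb3a* and *ved* were not called. *sox2* and *hmgb3a* were not called without control replicate 1 or labelled knockdown replicate 1 either, *ved* without control replicate 1 or labelled knockdown replicate 3, and *hmgb3a* without control replicate 3 or labelled knockdown replicate 3. *ved* was also not called with DESeq2, nor *hmgb3a* with library sizes alone.

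In the Lin28 and let-7 axis, 1 of 15 tested genes was called, lower, and the median was -0.044. It was *zcchc6*, a terminal uridylyltransferase gene whose mammalian relative adds uridine to let-7 precursors. It had 45.7, 43.0 and 33.0 CPM in the libraries labelled knockdown, against 67.8, 67.0 and 73.4 CPM in the controls. Set against the controls, the log2 fold change was -0.77 (SE 0.16, edgeR adjusted p = 0.00808), and it was called in all 16 alternatives. Of the 4 genes of this list with an unadjusted edgeR p under 0.05, *zcchc6* was lower, and *zcchc11*, *igf2bp3* and *trim71* were higher. *zcchc11* had 123, 111 and 159 CPM in the libraries labelled knockdown, against 101, 103 and 98.1 CPM in the controls. Its log2 fold change was 0.38 (SE 0.14, edgeR adjusted p = 0.143). Of the spalt-like family, 2 relatives of *sall4* were tested and not called: *sall2* had a log2 fold change of 0.022 and *sall3b* one of -0.30 (edgeR adjusted p = 0.975 and 0.386).

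The apelin pathway list had 1 call among 8 tested genes. *gnai2a*, a gene of an inhibitory G-protein subunit, had 95.3, 67.0 and 116 CPM in the libraries labelled knockdown, against 58.5, 59.3 and 64.4 CPM in the controls. Its log2 fold change was 0.62 (SE 0.17, edgeR adjusted p = 0.0432), and its second row, *gnai2a-2*, had 0.60. The call was lost with DESeq2, with limma-voom and in 5 of the 6 fits without 1 library. *aplnr2*, the apelin receptor gene of this list, overlapped between the groups, with a log2 fold change of 0.010 (SE 0.23, edgeR adjusted p = 0.988). Of the other inhibitory subunit genes, *gnai1* had -0.087, *gnai2b* 0.090 and *gnai3* 0.095, and none passed. In the chemokine list 0 of 13 tested genes were called by edgeR, with a median of 0.054, and 1 had an unadjusted p under 0.05.

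Cell types that carry the receptors were examined next. Of 10 tested lateral line primordium genes, 0 were called higher and 2 lower, and these were *sox3* and *sox2*, which also mark neural tissue. Their summed markers *cldnb* and *ackr3b* spanned 62.2 to 109 CPM in the libraries labelled knockdown and 66.7 to 73.3 CPM in the controls. In the endoderm list 0 of 8 tested genes were called by edgeR, with a median of 0.22, and 4 had an unadjusted p under 0.05. Of these 4, *gata5*, *gata6* and *hhex* were higher and *prox1a* was lower. Over all 15607 tested genes, 2826 had an unadjusted p under 0.05. Of 14 germ cell genes with a row, 2 could be tested and neither was called. The sum of *ddx4*, *nanos3* and *dnd1* was 8.27 to 10.6 CPM in the libraries labelled knockdown and 4.53 to 10.3 CPM in the controls. What part these cells have in the *cxcr4b* values was not tested.

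The tailbud progenitor list, of the tissue that extends the body axis, had the most calls. Of 20 tested genes, 5 were called higher and 1 lower, with a median log2 fold change of 0.32. The 4 with the largest change were the homeobox gene *cdx4* and the presomitic mesoderm regulators *msgn1*, *tbx16* and *tbx6*, at 1.84, 1.56, 1.502 and 1.36 (edgeR adjusted p = 0.000526, 0.0188, 0.00221 and 0.000686). Labelled knockdown replicates 3, 1 and 2 stood in this order, high to low, for *sall4*, *cdx4* and *tbx16*, but not for *tbx6* (123, 63.4 and 91.7 CPM in replicates 1, 2 and 3) or *msgn1* (13.5, 16.3 and 36.2 CPM). *tbx16* had 31.8, 17.7 and 37.1 CPM in labelled knockdown replicates 1, 2 and 3, against 10.9, 8.33 and 11.6 CPM in the controls. *msgn1* was not called without labelled knockdown replicate 3 or any 1 control. The remaining calls of this list were *ved* and *sox2*.

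In the endothelial list 1 of 21 tested genes was called, with a median of -0.15, and 8 estimates lay above 0 and 13 below. It was *kdr*, a vascular endothelial growth factor receptor gene, with 95.3, 81.5 and 127 CPM in the libraries labelled knockdown, against 59.3, 51.9 and 63.9 CPM in the controls. This gave a log2 fold change of 0.80 (SE 0.16, edgeR adjusted p = 0.00737), and the call was lost without control replicate 2. The endothelial markers *kdrl* and *cdh5* had log2 fold changes of -0.37 and -0.41 and did not pass (edgeR adjusted p = 0.219 and 0.253). Their sum was 67.0 to 100.1 CPM in the libraries labelled knockdown and 105 to 114 CPM in the controls. Each gene alone overlapped between the groups. In labelled knockdown replicate 1, *kdrl* had 55.3 CPM, against 54.8 CPM in control replicate 3. *cdh5* had 44.8 CPM there, against 43.9 CPM in control replicate 1. Other vascular and blood progenitor genes of the list, named after their values were seen, lay on both sides without passing. Above 0, *etv2* had a log2 fold change of 0.59 and *lmo2* one of 0.80 (edgeR adjusted p = 0.0752 and 0.0583). Below 0 were *stab2* at -0.74, *sox18* at -0.60 and *erg* at -0.58 (edgeR adjusted p = 0.0532, 0.210 and 0.196). The second row *stab2-2* had -0.20. What part vessel cells have in the receptor values was not tested. The gastrula list had 0 edgeR calls among 5 tested genes and the heart precursor list 0 among 9, with 2 genes at an unadjusted p under 0.05 in each. These were *tdgf1* and *lft1*, both higher, in the gastrula list and *cmlc1* and *myh6*, both lower, in the heart precursor list. DESeq2 and limma-voom also made 0 calls in the chemokine, endoderm, spalt-like, germ cell, gastrula and heart precursor lists. Without the filter on low counts, edgeR called 1 gene higher in the germ cell list and 1 in the gastrula list. Without labelled knockdown replicate 2 it called 2 endoderm genes, 1 germ cell gene and 1 gastrula gene higher and 1 heart precursor gene lower.

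**Figure D5:**
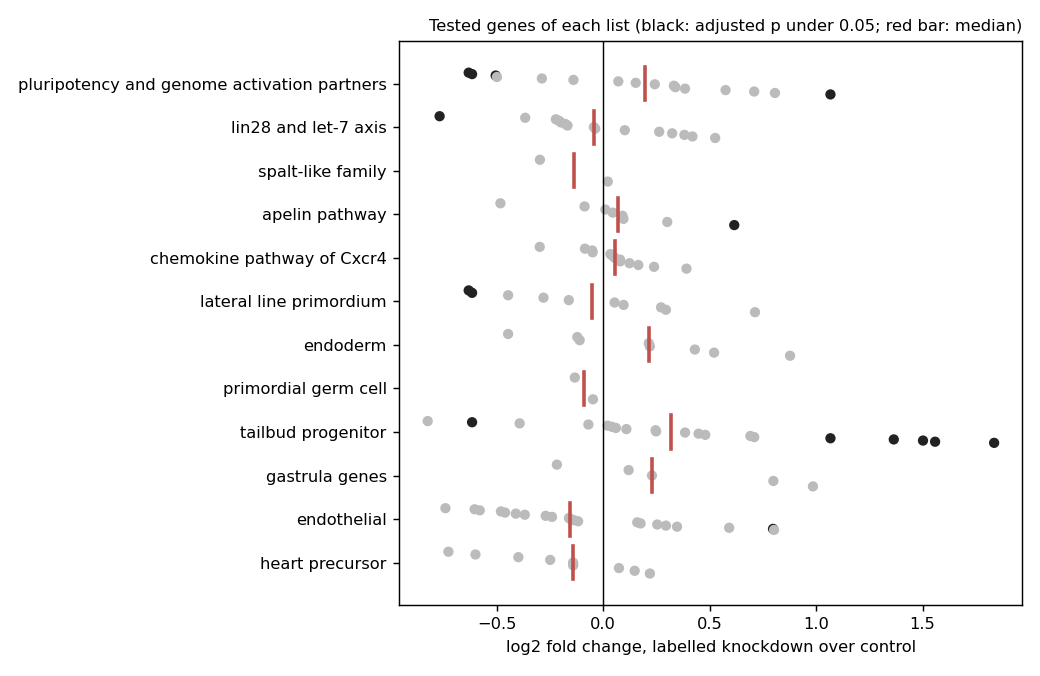
Log2 fold change of the libraries labelled knockdown over the controls for the tested genes of 12 lists. Points are genes, black where the edgeR adjusted p was under 0.05, and red bars are list medians, from -0.15 in the endothelial list to 0.32 in the tailbud list.

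Markers of differentiated tissues were summed for each library. Of the 15 tissue markers tested, 3 were called lower (*hbae3*, *cryba1b* and *apoa2*) and 0 higher by edgeR. Of all tested genes, 2.27% were called lower and 2.01% higher. *hbbe1.1* and *acta1b* narrowly missed the threshold, at log2 fold changes of -0.84 and -0.56 (edgeR adjusted p = 0.0535 and 0.0508). The 2 neuronal markers summed to 462 to 587 CPM in the libraries labelled knockdown and 668 to 791 CPM in the controls. *elavl4* alone overlapped, with 92.8 CPM in labelled knockdown replicate 2 against 86.5 CPM in control replicate 3. The muscle markers summed to 363 to 542 CPM in the libraries labelled knockdown and 551 to 738 CPM in the controls. This sum was in effect *acta1b* alone, since *mylpfa* had at most 0.453 CPM. The row *mylpfa-3* was not in the sum. It had 148, 240 and 188 counts in labelled knockdown replicates 1, 2 and 3, against 606, 555 and 282 in control replicates 1, 2 and 3, not scaled to depth. The blood markers summed to 157 to 260 CPM in the libraries labelled knockdown and 300.2 to 506 CPM in the controls. Lens markers summed to 3.21 to 9.96 CPM in the libraries labelled knockdown and 12.1 to 24.0 CPM in the controls. This sum was mostly *cryba1b*, since *cryaa* had at most 1.32 CPM. Epidermal marker sums overlapped, at 2674 to 3310 CPM in the libraries labelled knockdown and 2642 to 3199 CPM in the controls. These sums were nearly all *krt4*. *krt5* alone did not overlap, with 97.5, 93.7 and 107 CPM in the libraries labelled knockdown, against 80.0, 77.3 and 86.5 CPM in the controls. Its log2 fold change was 0.30, and it did not pass (edgeR adjusted p = 0.242). Yolk syncytial markers summed to 5970 to 8561 CPM in the libraries labelled knockdown and 9194 to 10600 CPM in the controls, and the hatching gland marker *ctslb* had 117 to 145 CPM in the libraries labelled knockdown and 131 to 146 CPM in the controls. The part of these tissues in the levels of the 8 genes was not tested.

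The genes most alike in pattern over the 6 libraries were found by the root mean square difference of centred log2 CPM. Candidates were the other tested genes with a mean of at least 10 CPM, 9980 for every gene but *pou5f3*. Genes whose symbol held a colon or started with LOC were left out. The rule used the same libraries as the comparison, so likeness is a description. *cxcr4b* was closest to *cnot3a*, *dedd* and *tle3b*, at 0.020 to 0.035. *sall4* was closest to *greb1l*, *cobll1b* and *wdr19-2*, at 0.053 to 0.061, and *greb1l* had 458, 360 and 510 CPM in labelled knockdown replicates 1, 2 and 3, against 346, 321 and 309 CPM in the controls. *lin28a* was closest to *frem1b*, *mdn1* and *vash2*, at 0.038 to 0.051.

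*aplnrb* was closest to *lmo2*, a blood and endothelial cofactor gene, at 0.058, followed by *prpf3-2* and *rbms2b-2* at 0.084 and 0.085. *lmo2* had 20.0, 18.6 and 31.2 CPM in labelled knockdown replicates 1, 2 and 3, against 12.7, 14.1 and 13.1 CPM in the controls. *cxcr4a* was closest to *plpp5*, *atp7a* and *tal1*, at 0.041 to 0.064. *plpp5*, the nearest, had 27.4, 18.1 and 31.2 CPM in the libraries labelled knockdown, against 21.7, 24.7 and 18.6 CPM in the controls. *tal1*, a blood and endothelial transcription factor gene, had 44.4, 30.3 and 49.1 CPM in the libraries labelled knockdown, against 32.0, 36.5 and 32.2 CPM in the controls. What part blood or vessel cells have in these likenesses was not tested. *aplnra* was closest to *slc25a16*, *ruvbl1* and *prpf6*, at 0.068 to 0.085. *pou5f3*, with few reads, had no candidate nearer than *gatad1*, *sp7* and *mogat2*, at 0.13 to 0.16.

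The 7 tested genes were not each other's nearest. Within the group the closest pair was *lin28a* and *cxcr4b*, at 0.13, followed by *sall4* and *lin28a*, at 0.14. The difference was not scaled to each gene's spread, so genes that vary little lie close to each other. Ranks depended on the gene they were taken from. *cxcr4b* ranked 378 from *lin28a*, and *lin28a* ranked 1116 from *cxcr4b*. Seen from *sall4*, *lin28a* ranked 213 among 9980 genes, and *sall4* ranked 551 from *lin28a*. From *aplnrb*, *sall4* ranked 170 and the paralog *aplnra* ranked 1534. In the other direction, *aplnrb* ranked 628 from *sall4* and 2654 from *aplnra*. From *cxcr4a*, the paralog *cxcr4b* ranked 1566, and *cxcr4a* ranked 5301 from *cxcr4b*. The widest pair was *pou5f3* and *aplnra*, at 0.55.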

How the data were processed

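After removal of ribosomal RNA, embryo RNA was read as 100-base pairs, per the labels' protocols. The authors deposited raw read counts in rows named by gene symbol, and 5998 names have a further row with the suffix -2. FastQC, cutadapt, STAR, DESeq2 and the genome build GRCz11 are named in the submitters' processing notes, without versions. The annotation, the counter and the strand setting are not given in the sources used here, so overlapping genes cannot be separated. Columns were matched to samples by library name. The third control's description repeats the second's number, and its title's number was used. Names were looked up in RefSeq's GRCz12tu table.

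Counts passing filterByExpr (minimum count 10, minimum total 15) were scaled with TMM factors and tested with edgeR 4.0.16 in R 4.3.3 (glmQLFit with robust=TRUE, glmQLFTest) over 6 libraries, with no term but group. The Benjamini-Hochberg adjustment ran over 15607 genes. CPM are counts scaled by the TMM-adjusted library total to a common size. Log2 CPM used a prior count of 2. Standard errors (SE) come from the log2 fold change and the root of the F statistic. Where all counts are 0, a limit of 3 counts is given. Intervals on shares and this limit cover counting error only.

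The genes, lists and tests were chosen with earlier results of these data known. The rule for named genes takes the 8 genes, *rapgef1b*, *rapgef1a* and 6 partners (*apln*, *cxcl12a*, *cxcl12b*, *ackr3b*, *nanog*, *trim71*), up to 4 called genes with the largest change per list, and the 3 genes most alike in pattern to each tested member. Likeness is the root mean square difference of log2 CPM over the 6 libraries, each gene centred on its own mean. Candidates were tested genes with a mean of at least 10 CPM, without symbols that held a colon or started with LOC.

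Alternatives were DESeq2 1.42.0, limma-voom (limma 3.58.1), 3 other scalings, the count filter dropped or set to 10 counts in each library, a non-robust fit, a replicate block, summing rows with their -2 copies, and leaving out each library. The fit was tested on simulated data for this comparison. Among 15307 tested, 193 carried a simulated log2 change of 1, and 66.8% of them were recovered, with 9 unchanged genes called. That change is larger than the *pou5f3* estimate of 0.90, the highest among the 7 tested genes of the 8. Recovery of changes as small as theirs was not tested. Figures were drawn with matplotlib 3.10.9.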

Additional observations from a re-analysis of the deposited data

How the results depend on the processing

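Every one of the 7 tested genes had a log2 fold change above 0 in all 16 alternatives. *pou5f3* ranged from 0.73 to 1.099, *lin28a* from 0.34 to 0.45 and *cxcr4b* from 0.14 to 0.23. Of the 8 genes, 2 were called, and 1 in the non-robust fit, where *sall4* was not. Without 1 library, the number was 0 to 2. *sall4* was not called without labelled knockdown replicate 1 or 3 or any 1 control, and *aplnrb* not without labelled knockdown replicate 3 or any 1 control.

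Over all genes, 669 were called, 314 higher and 355 lower. Without a filter on low counts the number was 1010, with 572 lower, and 19 list genes were called in place of 11, 14 of them higher. Without 1 library, 218 to 914 genes were called, 93 to 405 higher and 122 to 509 lower, and 4 to 22 list genes, 3 to 16 higher and 1 to 6 lower. Among these fits, the highest numbers were without labelled knockdown replicate 2, and the cause was not tested. With library sizes alone, 58.9% of calls were higher, against 46.9% with TMM factors. The labels do not say that equal replicate numbers mark a shared clutch or day, so the numbers were not taken to pair the libraries. Deviations of same-numbered libraries from their group means correlated at r = -0.014 to 0.069 over the tested genes. Counting noise enters these values, so they cannot show that the libraries are unpaired. With the replicate block 773 genes were called, 2 of the 8 genes among them. *ackr3b* changed direction without labelled knockdown replicate 2 or 3 or control replicate 2, at -0.044, -0.083 and -0.054, with no call. Counts of 14 to 30 reads limit *pou5f3*.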
